A study of Mus musculus with 7 samples.

Results

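The mRNAs of 10 translation elongation and release factors were followed in mouse oocytes before and after meiotic maturation. The genes were taken by symbol from the expression tables: Eef1a1, Eef1b2, Eef1d, Eef1g, Eef1e1, Eef2, Eef2k, Tpt1, Etf1 and Gspt1. Each was found as 1 entry among the 25912 entries listed per library, and all 10 were among the 9202 entries with a mean of the 3 group means of at least 1 FPKM, on which the tests were run. Smart-seq2 libraries of 10 oocytes each came from C57BL/6 females, 4 weeks old and primed with PMSG, a gonadotropin that stimulates follicle growth. GV oocytes (germinal vesicle stage, arrested in prophase of the first meiotic division) gave 2 libraries and carried the treatment label NO, while the methods of the study mention DMSO for control oocytes of both stages. MII oocytes (arrested at metaphase of the second meiotic division) gave 3 libraries with DMSO, the solvent, and 2 libraries with BYBX, a ligand that stabilizes RNA G-quadruplexes (rG4s), folded structures of stacked guanines. In the study, fewer oocytes released the first polar body as BYBX rose, and the treated ones that reached MII had abnormal spindles. How the BYBX oocytes were selected is not stated. An effect of BYBX on mRNA levels and disturbed maturation therefore cannot be told apart here. No genetic change was made in any group, and the labels of these libraries state no dose of BYBX.

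FPKM, a count of fragments relative to transcript length and sequencing depth, had been scaled by the authors to an added spike-in RNA, so that the total differed between groups. It ranged from 402113 to 489569 FPKM in GV, from 109732 to 127254 in MII with DMSO and from 201482 to 246710 in MII with BYBX. All 8 oocyte markers examined were at or above 1 FPKM in each group, and they summed to 11600 to 14450 FPKM in GV, 1907 to 2116 in MII with DMSO and 5565 to 6648 in MII with BYBX, so that they were lowest with DMSO, as the members were. The summed level of 9 granulosa and cumulus cell markers was 4.49 to 7.23 FPKM in GV, 1.96 to 2.07 in MII with DMSO and 2.81 to 3.17 in MII with BYBX. The summed level of 6 erythrocyte markers did not exceed 1.20 FPKM in any library. Nothing states that libraries of 1 group came from separate mice or cultures, so the p-values measure only the spread between these libraries. In such pooled samples, fewer cells and less RNA per cell cannot be told apart, and because reverse transcription started from the poly(A) tail, loss of an mRNA and loss of its tail cannot be told apart either.

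A growing polypeptide is extended by a cycle in which eEF1A, encoded by Eef1a1, brings an aminoacyl-tRNA to the ribosome and eEF2 then moves the ribosome along by a codon. The eEF1B complex reloads eEF1A with GTP, and the kinase eEF2K slows the cycle by phosphorylating eEF2. At a stop codon eRF1 (Etf1) and the GTPase eRF3a (Gspt1) release the finished chain. Many mRNAs of this machinery are TOP mRNAs, which begin at the cap with a C followed by a run of pyrimidines and are regulated together at translation in growing cells. A fully grown oocyte makes no new RNA and relies on stored mRNA, much of which is cleared or loses its tail during maturation.

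A pyrimidine run of the TOP kind and the rG4 motif were searched in the annotation. The TOP run is known from many, but not all, mRNAs of this machinery, and rG4s are what BYBX binds. In the longest protein-coding transcript of each gene (GENCODE vM21, GRCm38, the same build as mm10), a C followed by at least 5 more pyrimidines lay within the first 100 bases for 8 of the 10 genes, the exceptions being Eef2k and Tpt1. The same was true of 52.1% of the 8747 tested genes with such a transcript, so the share in the family is set against a common feature. A run in this window need not begin at the cap, so it is not by itself a TOP as defined above. For Eef2k and Tpt1 the result says only that no such run is in the transcript searched. Of the 8 starts with a run, 3 are printed here, 5′ to 3′ on the sense strand, with the pyrimidine run in capitals. They were chosen as the starts of the tRNA carrier and of 2 eEF1B subunits, among them the member with the largest fall during maturation.
Eef1a1-201: gacgttCTTTTTCgcaacgggtttgccgtc
Eef1d-206: cgggcgCCCTCCCTCTCCTTTgcagtcctg
Eef1g-201: cgtatgCCTTTTatgccgtcctcgctttcc

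Counted from the first base of each annotated transcript, the runs began at base 54 in Eef1a1, 29 in Eef1d and 44 in Eef1g. None of these runs thus began at the annotated start. In a shorter Eef1b2 transcript a run of 13 bases began at base 1. No shorter transcript of any other member was searched, so this start is not particular to Eef1b2 by these data. Eef1a1 lies at chr9:78478449-78489151 on the minus strand, Eef1d at chr15:75894205-75909556 on the minus strand and Eef1g at chr19:8967041-8978479 on the plus strand. All 3 pieces are exonic and lie near the start of the mRNA. Genes with a run included the member with the largest fall during maturation, Eef1d, and a member with a small one, Eef1b2. An rG4 motif of 4 runs of at least 3 G, parted by 1 to 7 bases, was present on the sense strand of the longest transcript of 1 member, Etf1, and of 18.7% of the 8747 genes. For the other 9 members this says only that these letters are not in the transcript searched.

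From GV to MII with DMSO all 10 mRNAs were lower on the deposited scale (10 of 10 at a limma adjusted p under 0.05, against 88.3% of all tested entries), but the size of the fall differed widely within the family. Eef1d was 197.5-fold, Eef1g 95.4-fold, Eef1a1 62.5-fold and Eef2 39.2-fold higher in GV than in MII with DMSO, whereas Eef1b2 was 3.01-fold and Tpt1 2.27-fold higher. The ratio of Eef1g is uncertain, since its levels with DMSO were 0.0370 to 0.0974 FPKM. The median log2 fold change of the members was -3.08, and that of all tested entries was -1.83. With BYBX all 10 were higher than with DMSO (10 of 10, against 65.2%), with a median of 1.48 against 0.84 for all tested entries, and 8 of 10 were still lower than in GV (against 69.2%), with a median of -1.43 against -0.99. Eef1b2 and Tpt1 were the members that did not pass in the last comparison. With libraries set to the same total or centred on their median, both were no longer lower in MII with DMSO (values are given further on).

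**Figure D1:**
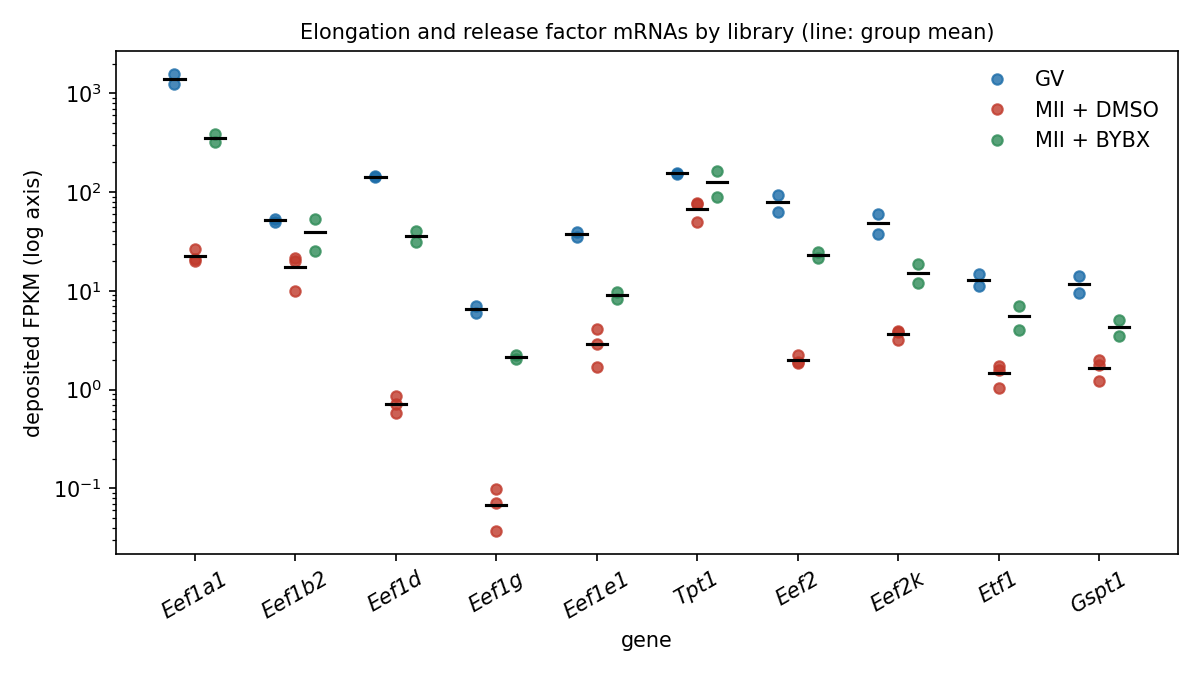
Deposited FPKM of the 10 mRNAs in each of the 7 libraries, on a log axis, with points for libraries and a line at each group mean. In each gene the 3 MII libraries with DMSO lie below both GV libraries, from a small gap in Tpt1 (49.8 to 78.0 against 153.9 and 154.2 FPKM) to a wide one in Eef1d (0.585 to 0.869 against 140.4 and 144.5 FPKM).

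Eef1a1, the tRNA carrier, was the most abundant member in GV. Its level was 1554 and 1243 FPKM in GV, 20.2, 20.8 and 26.2 in MII with DMSO, and 318 and 387 in MII with BYBX. The 3 groups were apart in every library, with BYBX between the others. The log2 fold change was -5.90 (SE 0.25, limma adjusted p = 3.1e-10) from GV to MII with DMSO, and only 1.25% of the tested entries had a lower value. Between MII with BYBX and with DMSO it was 3.92 (SE 0.25, adjusted p = 5.4e-08), and 98.6% of the tested entries had a lower one. Against GV, the BYBX libraries stood at -1.98 (SE 0.28, adjusted p = 8.1e-05). By rank among 25908 entries with a value in every library, Eef1a1 moved from places 32 and 33 in GV to places 795 to 963 in MII with DMSO, and stood at 102 and 64 in MII with BYBX.

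The subunits of eEF1B did not move alike. Eef1d encodes the delta subunit, a nucleotide exchange factor. Its mRNA was at 140.4 and 144.5 FPKM in GV, 0.585, 0.711 and 0.869 in MII with DMSO, and 39.9 and 31.2 in MII with BYBX. MII oocytes with DMSO thus held 0.506% of the GV mean and those with BYBX 24.9%, with no overlap between any of the groups. The log2 fold change of -6.38 (SE 0.24, limma adjusted p = 2.4e-10) placed Eef1d 53rd from the lowest among the 9202 tested entries, and the difference of 4.40 (SE 0.24, adjusted p = 2.4e-08) with BYBX exceeded that of 99.3% of them.

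Eef1b2, which encodes the alpha subunit and also exchanges the nucleotide, gave 50.2 and 53.4 FPKM in GV, 10.1, 21.3 and 20.2 in MII with DMSO, and 53.3 and 25.4 in MII with BYBX. The DMSO libraries were all below the GV libraries, and the BYBX libraries were far apart, with replicate 1 at the GV level and replicate 2 near the DMSO level. The fall to MII with DMSO was -1.60 on the log2 scale (SE 0.36, limma adjusted p = 0.00082), and MII with BYBX was higher than with DMSO by 1.12 (SE 0.36, adjusted p = 0.014). The difference between MII with BYBX and GV was -0.48 (95% interval -1.32 to 0.36, adjusted p = 0.29) and did not pass. Without BYBX replicate 1 the difference from DMSO became 0.60 (adjusted p = 0.22) and that from GV -1.0 (adjusted p = 0.049), so that both calls turned. The BYBX group then holds 1 library, which limma takes to vary like the other groups, here and for Tpt1. With no filter on level the difference from DMSO had an adjusted p of 0.099.

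Eef1g, the gamma subunit that holds the complex together, was the lowest of the 10 in every group. It was at 7.08 and 5.94 FPKM in GV, 0.0974, 0.0370 and 0.0703 in MII with DMSO, and 2.24 and 2.04 in MII with BYBX. The log2 fold changes, -2.81 (SE 0.18, limma adjusted p = 5.9e-09) from GV to MII with DMSO and 1.56 (SE 0.18, adjusted p = 7.6e-06) with BYBX against DMSO, understate the change because a pseudocount of 1 FPKM was added. The ratio of the means was 95.4 between GV and MII with DMSO and 31.4 between MII with BYBX and with DMSO. Both ratios rest on levels near 0 with DMSO, so their size is uncertain. Eef1e1 encodes AIMP3, an eEF1-related protein of the multi-tRNA synthetase complex. Its mRNA stood at 35.3 and 39.6 FPKM in GV, 1.71, 4.08 and 2.90 in MII with DMSO, and 8.24 and 9.70 in MII with BYBX. It fell by 3.35 on the log2 scale (SE 0.28, limma adjusted p = 5.9e-08), and the BYBX libraries were 3.10-fold above the DMSO libraries without overlap (log2 1.40, SE 0.28, adjusted p = 0.00062).

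Tpt1 encodes TCTP, a small growth-related protein that binds eEF1A and eEF1B. It was at 153.9 and 154.2 FPKM in GV, 49.8, 75.7 and 78.0 in MII with DMSO, and 164.7 and 89.4 in MII with BYBX. Of the 10 mRNAs it lost the least, and MII oocytes with DMSO held 44.0% of the GV mean. The log2 fold change was -1.20 (SE 0.31, limma adjusted p = 0.0022), smaller than the median of all tested entries, and 69.0% of those had a lower value. BYBX against DMSO gave 0.86 (SE 0.31, adjusted p = 0.024) and BYBX against GV -0.34 (95% interval -1.06 to 0.38, adjusted p = 0.37). As in Eef1b2, BYBX replicate 1 was at or above the GV level and replicate 2 close to the DMSO libraries. Without BYBX replicate 1 the difference from DMSO was 0.42 (adjusted p = 0.33), without DMSO replicate 1 it was 0.65 (adjusted p = 0.07), and without either GV library it was 0.86 with an adjusted p of 0.052. With no filter on level the adjusted p was 0.10, and in a fit of the MII libraries alone it was 0.051. By rank, Tpt1 stood at places 569 and 439 in GV and at places 240 to 352 in MII with DMSO.

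Eef2, the translocase, was at 93.5 and 63.4 FPKM in GV, 1.84, 2.25 and 1.91 in MII with DMSO, and 24.8 and 21.6 in MII with BYBX. The groups were well apart, and the fall of -4.70 (SE 0.25, limma adjusted p = 1.1e-09) was lower than that of all but 5.41% of the tested entries. With BYBX the level was 11.6-fold that with DMSO (log2 3.01, SE 0.25, adjusted p = 3.5e-07). Eef2k, whose kinase inhibits eEF2, gave 59.7 and 37.4 FPKM in GV, 3.19, 3.96 and 3.81 in MII with DMSO, and 18.6 and 12.0 in MII with BYBX. Its fall was smaller, -3.38 (SE 0.28, limma adjusted p = 5.6e-08), and so was the difference with BYBX, 1.78 (SE 0.28, adjusted p = 8.8e-05).

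Of the release factors, Etf1 was at 14.8 and 11.1 FPKM in GV, 1.04, 1.58 and 1.75 in MII with DMSO, and 7.05 and 3.98 in MII with BYBX. Gspt1 was at 9.46 and 14.0 FPKM in GV, 1.23, 1.98 and 1.77 in MII with DMSO, and 5.06 and 3.48 in MII with BYBX. In both genes the BYBX libraries lay between the other groups without overlap. Etf1 fell by 2.51 on the log2 scale (SE 0.26, limma adjusted p = 6.8e-07) and Gspt1 by 2.25 (SE 0.25, adjusted p = 1.3e-06) from GV to MII with DMSO. With BYBX they were higher than with DMSO by 1.38 (SE 0.26, adjusted p = 0.00047) and 0.98 (SE 0.25, adjusted p = 0.0039). Against GV the difference for Etf1 was -1.13 (adjusted p = 0.0036), and without GV replicate 1 it was -0.94 (adjusted p = 0.056).

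**Figure D2:**
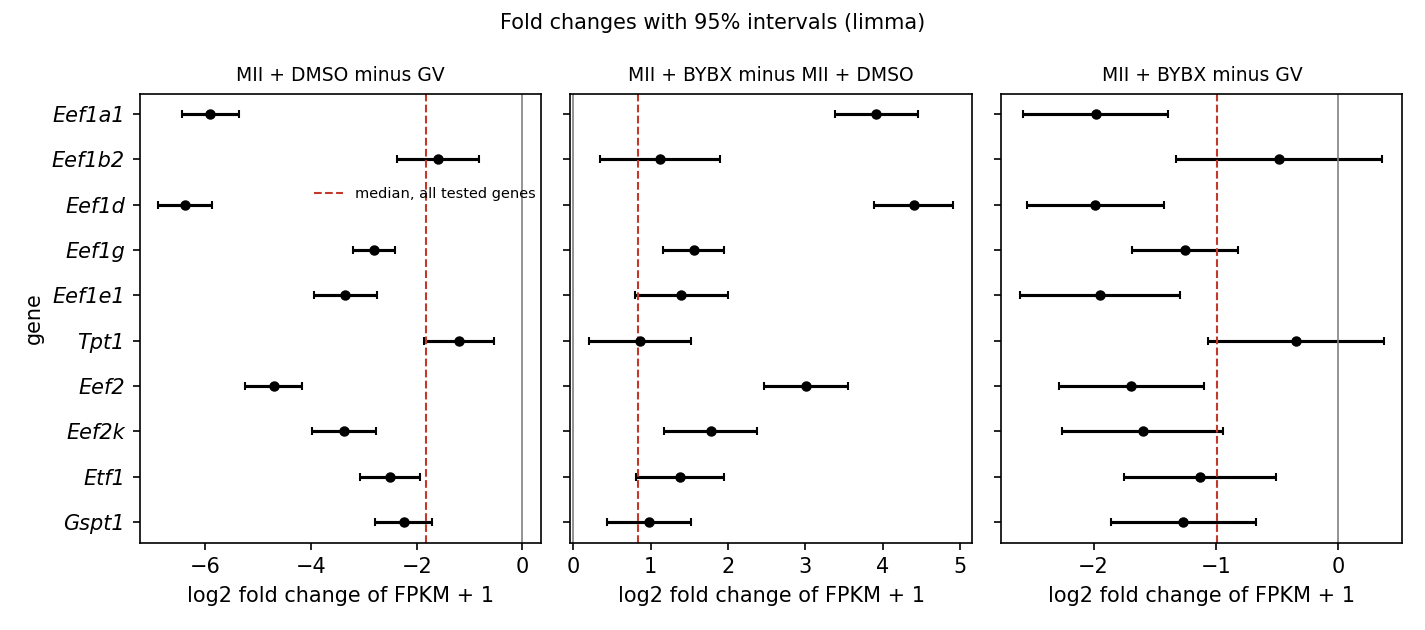
Fold changes of the 10 mRNAs on the log2(FPKM + 1) scale in the 3 comparisons, with 95% intervals from limma and a dashed line at the median of all 9202 tested entries (-1.83, 0.84 and -0.99). Eef1d, Eef1a1 and Eef2 lie farthest from the dashed line in the first 2 panels, while Tpt1 and Eef1b2 lie close to it, and in the third panel their intervals include 0.

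The difference between MII with BYBX and with DMSO was compared with the size of the fall. This is a description, since both use the DMSO libraries. The share of the fall in mean FPKM that was absent with BYBX was 0.240 for Eef1a1, 0.246 for Eef1d, 0.277 for Eef2, 0.259 for Eef2k and 0.259 for Gspt1. It was 0.176 for Eef1e1, 0.322 for Eef1g and 0.352 for Etf1. Taken from each BYBX library alone, the share was 0.486 in replicate 1 and 0.218 in replicate 2 for Etf1, 0.338 and 0.180 for Gspt1, and 0.334 and 0.185 for Eef2k. From the mean of both libraries these 8 shares lay between 0.176 and 0.352, while the falls behind them ranged from 7.06-fold in Gspt1 to 197.5-fold in Eef1d. For Eef1b2 the share was 0.640, being 1.04 in BYBX replicate 1 and 0.236 in replicate 2, and for Tpt1 it was 0.687, being 1.12 and 0.25, so that replicate 2 alone put both within the range of the other members.

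The make-up of the family changed with these unequal falls. The 10 mRNAs summed to 1942 ± 249.0 FPKM in GV (SD, n = 2), 119.9 ± 26.2 in MII with DMSO (SD, n = 3) and 613.9 ± 40.3 in MII with BYBX (SD, n = 2). They took 0.433% and 0.439% of all FPKM in the GV libraries, 0.0818% to 0.108% with DMSO, and 0.260% and 0.290% with BYBX. Eef1a1 made up 70.4% and 73.4% of the sum in GV, but 15.7% to 22.5% in MII with DMSO, where Tpt1 made up 55.5% to 57.2%. With BYBX Eef1a1 again led, with 49.6% and 66.1%, and Tpt1 made up 25.7% and 15.3%. Eef1b2 took 2.37% and 3.02% in GV and 11.2% to 16.1% in MII with DMSO, while Eef1d went from 6.63% and 8.18% to 0.537% to 0.651%.

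**Figure D3:**
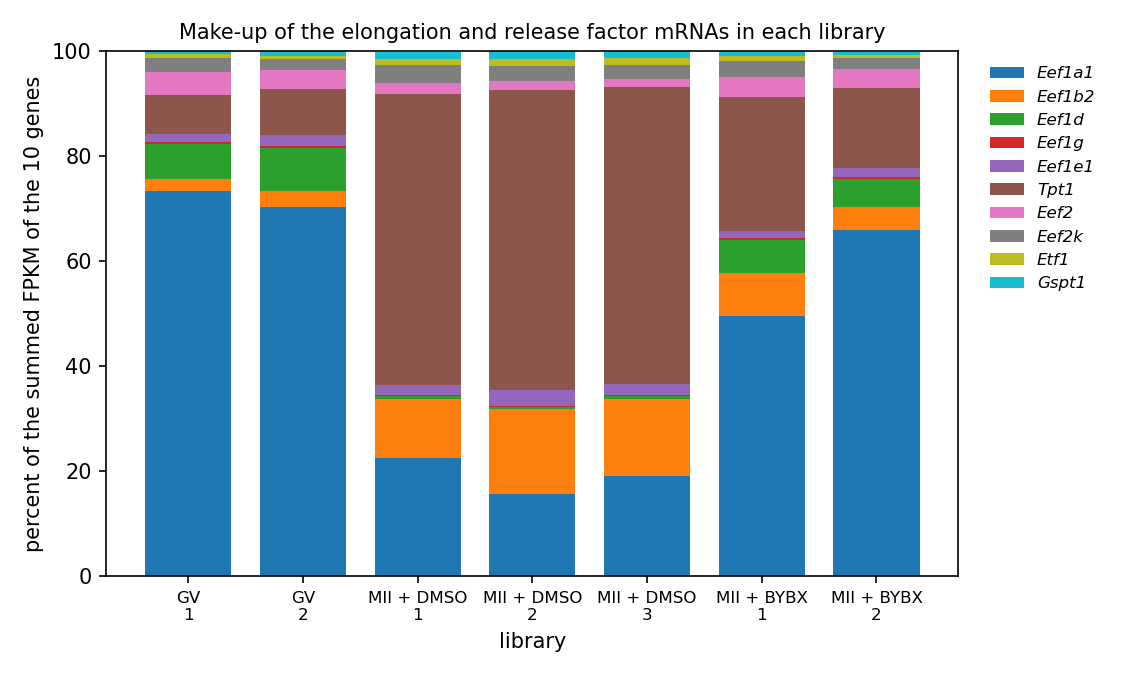
Percent of the summed FPKM of the 10 mRNAs contributed by each, in each library. Eef1a1 fills 70.4% and 73.4% of the GV bars and 15.7% to 22.5% of the MII bars with DMSO, in which Tpt1 fills 55.5% to 57.2%, and the 2 BYBX bars lie between.

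In GV the order of the mean levels, which FPKM gives per length, was Eef1a1, Tpt1, Eef1d, Eef2, Eef1b2, Eef2k, Eef1e1, Etf1, Gspt1 and Eef1g. Neighbours whose libraries overlapped were Eef1b2 and Eef2k, Eef2k and Eef1e1, and Etf1 and Gspt1. In MII with DMSO the order was Tpt1, Eef1a1, Eef1b2, Eef2k, Eef1e1, Eef2, Gspt1, Etf1, Eef1d and Eef1g, and Eef1a1 overlapped with Eef1b2, as did each pair of neighbours from Eef2k to Etf1. Eef1d thus went from the third place to the ninth, and Eef1b2 from the fifth to the third. In MII with BYBX the order was that of GV except that Eef1b2 stood ahead of Eef1d, with which it overlapped, and of Eef2.

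Ratios between members within a library do not depend on how libraries were scaled. Tpt1 to Eef1a1 was 0.0990 and 0.124 in GV, 2.47, 3.64 and 2.98 in MII with DMSO, and 0.517 and 0.231 in MII with BYBX. Eef1d to Eef1b2, the 2 exchange subunits, was 2.80 and 2.71 in GV, 0.0581, 0.0333 and 0.0429 with DMSO, and 0.749 and 1.23 with BYBX. In both ratios the groups were apart in every library, with BYBX between. Eef2k to Eef2, the kinase to its substrate, was 0.639 and 0.591 in GV, 1.73, 1.76 and 2.0 with DMSO, and 0.752 and 0.554 with BYBX, so that the DMSO libraries stood alone and GV and BYBX overlapped.

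Gspt1 to Etf1, by contrast, was 0.637 and 1.26 in GV and 1.19, 1.25 and 1.01 in MII with DMSO, with overlap, and 0.717 and 0.874 with BYBX. For the 10 ratios computed, by an exact two-sided permutation test of the mean log2 ratio, 2 libraries against 3 cannot give a p below 0.1 and 2 against 2 none below 0.33, and after adjustment over the 30 tests none was under 0.21, so no ratio could pass. The difference in mean log2 ratio from GV to MII with DMSO was 4.75 for Tpt1 to Eef1a1, -5.98 for Eef1d to Eef1b2, 1.57 for Eef2k to Eef2 and 0.36 for Gspt1 to Etf1 (exact p = 0.1, 0.1, 0.1 and 0.7).

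**Figure D4:**
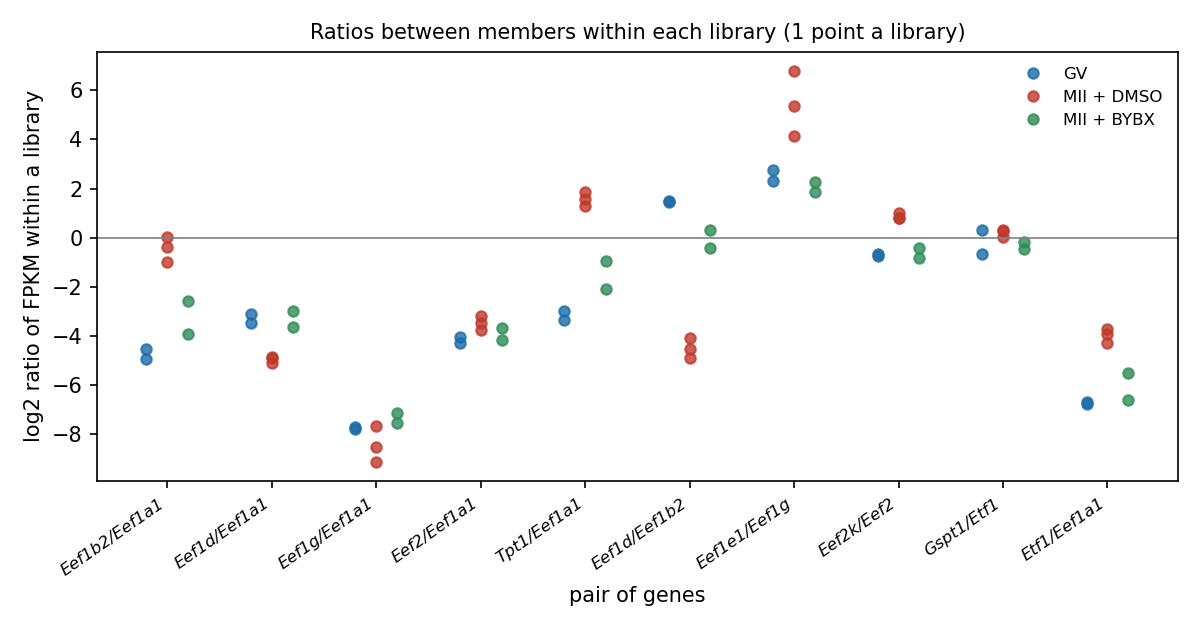
Log2 ratio of FPKM between pairs of members within each library, 1 point a library. For Tpt1 to Eef1a1 the group means are -3.17 in GV, 1.58 in MII with DMSO and -1.53 in MII with BYBX, and for Eef1d to Eef1b2 they are 1.46, -4.52 and -0.06.

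Because most mRNAs were lower in MII oocytes, the same comparisons were made with libraries scaled to the same total and with libraries centred on their median. From GV to MII with DMSO the median log2 fold change of all tested entries was then -0.56 and 0.47. With the same total, 8 members were lower after maturation with DMSO (against 49.5% of tested entries) and 1, Tpt1, was higher (against 23.3%), at 0.67 on the log2 scale (limma adjusted p = 0.026). Eef1b2 was at 0.22 (adjusted p = 0.55). After centring on the median, 6 were lower (against 26.7%) and Tpt1 was higher (against 48.8%), at 1.10 (limma adjusted p = 0.0038), while Eef1b2 at 0.70, Etf1 at -0.20 and Gspt1 at 0.06 did not pass. Eef1d at -4.08, Eef1a1 at -3.60 and Eef2 at -2.40 were lower on this scale too.

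With BYBX against DMSO, 6 members were higher at the same total (against 39.9%), namely Eef1a1, Eef1d, Eef1g, Eef2, Eef2k and Etf1. After centring, 3 were higher (against 18.4%): Eef1a1 by 2.64, Eef1d by 3.12 and Eef2 by 1.73 on the log2 scale. Against GV, 3 members were lower with BYBX at the same total (against 13.3%), the same 3 genes, at -0.99, -1.0 and -0.72, and 4 after centring (against 13.6%), these 3 and Eef1e1. Eef1a1, Eef1d and Eef2 were therefore called in each comparison on each of the 3 scales. The pseudocount of 1 FPKM understates the changes of Eef1g on these scales. With 0.1 FPKM on the deposited scale its log2 fold changes were -5.31 from GV to MII with DMSO and 3.75 with BYBX against DMSO. Changes of other members with low levels in MII with DMSO are reduced too. With 0.1 FPKM the first comparison gave -7.45 for Eef1d, -5.2 for Eef2, -3.09 for Etf1 and -2.75 for Gspt1. Median centring was run only with 1 FPKM, so the centred values of Etf1 and Gspt1 carry this limit.

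**Figure D5:**
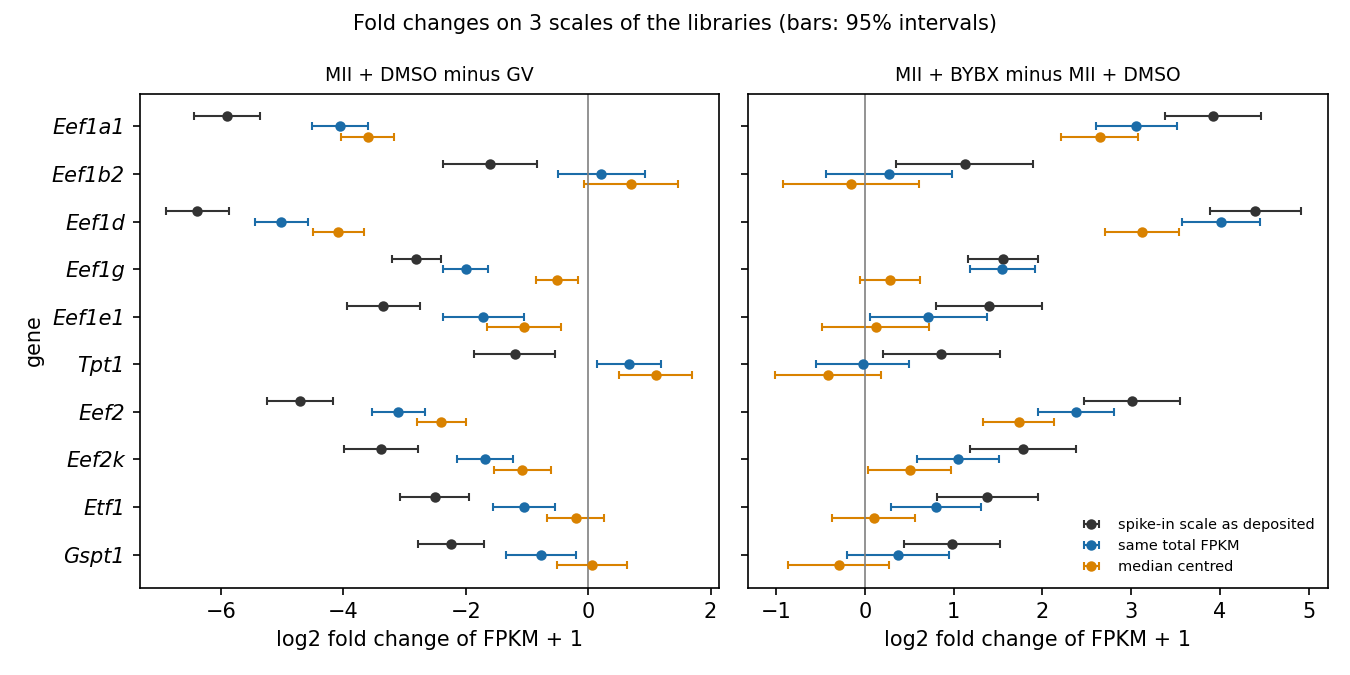
Fold changes of the 10 mRNAs on the log2(FPKM + 1) scale with libraries as deposited, scaled to the same total or centred on the median, with 95% intervals. Eef1a1, Eef1d and Eef2 keep their direction away from 0 on each scale in both panels, while Tpt1 turns from -1.20 as deposited to 0.67 and 1.10 in the left panel.

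The wider machinery was described by 39 further genes of elongation, release, ribosome recycling and the modification of these factors, all listed in the tables, of which 29 were at a level that could be tested. Factors of mitochondrial translation, such as Tsfm and Gfm1, and parts of the multi-tRNA synthetase complex were among them, so the counts do not describe the cytosolic factors alone. From GV to MII with DMSO 28 of the 29 were lower (96.6%, against 88.3% of all tested entries), with a median log2 fold change of -2.47 between that of the members and that of all entries. The exception, Pelo, a factor that rescues stalled ribosomes, was at -0.88 (limma adjusted p = 0.060). With BYBX 23 were higher than with DMSO (79.3%, against 65.2%) and 24 were lower than in GV (82.8%, against 69.2%), by the same limma test. The 5 that did not pass against GV, named here after their values were seen, were Secisbp2, Pelo, Trmt112, Tsfm and Gfm1.

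The 3 largest falls among the listed genes with at least 10 FPKM in the higher group were those of Eif2d, a factor that recycles the small subunit, Aimp2, a scaffold of the multi-tRNA synthetase complex, and Dohh, the enzyme that completes hypusine on eIF5A. Eif2d was at 79.4 and 57.5 FPKM in GV, 1.46, 0.988 and 1.70 in MII with DMSO, and 16.8 and 18.1 in MII with BYBX. Their log2 fold changes from GV to MII with DMSO were -4.86, -4.79 and -4.74, and those with BYBX against DMSO, the 3 largest rises, were 2.96, 2.97 and 3.25. The same minimum of 10 FPKM was used between MII with BYBX and GV. Among genes that reached it, the largest falls were those of Eefsec, which delivers selenocysteine tRNA (-2.17), Eif2d (-1.90) and Aimp2 (-1.83).

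Gspt2 encodes eRF3b, the close relative of Gspt1, and is named here after its values were seen. It was at 128.1 and 93.7 FPKM in GV, 10.1, 11.9 and 10.6 in MII with DMSO, and 46.5 and 32.8 in MII with BYBX. Its mRNA was above that of Gspt1 in all 7 libraries. Its log2 fold changes were -3.22 (SE 0.26, limma adjusted p = 5.2e-08) from GV to MII with DMSO and 1.76 (SE 0.26, adjusted p = 6.1e-05) with BYBX against DMSO. Eef1a2, the second gene for eEF1A, which is used in muscle and brain, was listed at 0 in every library.

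By Euclidean distance over the 7 libraries between profiles of log2(FPKM + 1) taken relative to the GV mean, the tested entries most like Eef1d were Gemin7 (distance 0.29), Rars (0.37) and Rpl24 (0.40). Rpl24, a protein of the large ribosomal subunit, had means of 151.9 FPKM in GV, 0.725 in MII with DMSO and 41.1 in MII with BYBX. Those most like Tpt1 were 2310069G16Rik (distance 0.20) and Chd4 (0.29), among the 3 nearest. Chd4, which encodes a chromatin remodeller, had means of 21.6, 9.24 and 15.9 FPKM in the same order of groups.

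Several members have near-identical copies in the genome, and only uniquely aligned reads had been counted. Of all 50-base windows in the longest transcript, 60.6% in Eef1a1, 64.3% in Eef1g and 42.0% in Tpt1 also occur in annotated transcripts of other genes, most of them processed pseudogenes (18 of 21 genes, 5 of 5 and 5 of 5). Levels of these 3 genes, and comparisons of level with other members, are therefore uncertain. By the study's methods the reads were paired and longer than such a window, so the percentages can overstate the share of reads affected. For Eef2 the percentage was 7.86, for Eef1d 5.84, for Gspt1 4.17 and for Eef2k 1.07, and for Eef1e1 and Etf1 it was 0. In the longest Eef1b2 transcript it was 5.98, and in a shorter one 16.6.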

How the data were processed

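Per the labels and the study's methods, the authors trimmed reads with Trim Galore 0.6.7, aligned them to mm10 with HISAT2 2.2.1, kept unique reads and computed FPKM with Cufflinks 2.2.1 on UCSC gene models. The deposited FPKM values had been scaled by the authors to ERCC spike-in RNA, and batches to one another by their GV samples. Neither the factors nor the batch of each library are stated, so no within-batch value could be given. Cufflinks FPKM keep no read counts, so the depth is unknown and precision rests on 2 or 3 libraries a group.

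Of 25912 entries, 4 with a missing value were left out. Values were taken as log2(FPKM + 1). Fold changes, standard errors and 95% intervals came from limma 3.58.1 in R 4.3.3 (lmFit, contrasts.fit, eBayes with trend) on the 9202 entries whose 3 group means averaged 1 FPKM or more, in 1 model of 7 libraries with 4 residual degrees of freedom, and p-values were Benjamini-Hochberg adjusted over all of them. A call is an adjusted p under 0.05. The fit was tested on simulated data. Ratios within libraries used exact permutation tests in scipy 1.17.1. All 10 members are named. A few sequences and 1 gene that the rules select are not reported here. Of the 39 further genes, the 3 largest called changes per direction and comparison with at least 10 FPKM in the higher group are named. The members and lists were chosen with earlier results of these data known. Alternatives were another pseudocount (0.1 FPKM), a filter at 5 FPKM or none, the same total, median centring, 2-group fits, a replicate block, no trend, a minimum of 2-fold, and leaving out each library.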

Additional observations from a re-analysis of the deposited data

How the results depend on the processing

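The direction and call of the members held in 405 of 447 repeats of their fold changes, and changes of scale gave most exceptions. With the same total FPKM, 6 members were higher with BYBX against DMSO and 3 lower than in GV, and 1 was higher from GV to MII with DMSO. The log2 fold change reversed for Eef1b2 from GV to MII with DMSO (0.22) and in BYBX against GV (0.49), and for Tpt1 in all 3 comparisons (0.67, -0.03 with BYBX against DMSO, and 0.64 against GV). After median centring, 6 members were lower and 1 higher in MII with DMSO, 3 were higher with BYBX against DMSO and 4 lower than in GV. Eef1b2 reversed in the 3 comparisons (0.70, -0.16 and 0.55), as did Tpt1 (1.10, -0.42 and 0.68), and Gspt1 reversed in the first (0.06) and the second (-0.30). Gspt1 had a mean of 1.66 FPKM with DMSO, near the pseudocount of 1 FPKM, which reduces its changes. These scales equalize the total or the median of the libraries, but a typical entry still shifted. At the same total the median log2 fold change of all tested entries was -0.56 from GV to MII with DMSO. It was 0.34 with BYBX against DMSO and -0.17 with BYBX against GV. After centring these medians were 0.47, -0.44 and 0.04, so Tpt1 at -0.42 in the second comparison lay near the median. Of the 29 further genes tested, at the same total 5 were higher and 21 lower in MII with DMSO (17.2% and 72.4%, against 23.3% and 49.5% of all tested entries), 16 higher and 1 lower with BYBX against DMSO (55.2% and 3.45%, against 39.9% and 8.22%), and 8 lower than in GV (27.6%, against 13.3%). After centring 9 were higher and 12 lower in MII with DMSO (31.0% and 41.4%, against 48.8% and 26.7%), 10 higher and 10 lower with BYBX against DMSO (34.5% each, against 18.4% and 43.9%), and 3 higher and 7 lower than in GV (10.3% and 24.1%, against 15.2% and 13.6%). With a filter at 5 FPKM fewer of them were tested, and 17 were lower in MII with DMSO, 13 higher with BYBX and 13 lower than in GV. At a minimum of 2-fold 15 were higher with BYBX against DMSO. The members' share of all FPKM without the 10 most abundant entries was 0.469% in GV, 0.116% with DMSO and 0.307% with BYBX.

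Leaving out 1 library in turn gave log2 fold changes between MII with BYBX and GV of -1.0 to 0.04 for Eef1b2 and -0.78 to 0.10 for Tpt1, with the reversal without BYBX replicate 2. The ratio of Eef1d to Eef1a1 in BYBX against GV reversed without BYBX replicate 2 or GV replicate 2 (range -0.35 to 0.29, and 0.15 without GV replicate 2), Eef2k to Eef2 without BYBX replicate 1 (-0.15), and Gspt1 to Etf1 without GV replicate 1 from GV to MII with DMSO (range -0.13 to 0.85) and without GV replicate 2 in BYBX against GV (range -0.67 to 0.31). A pseudocount of 1 FPKM reversed ratios with Eef1g, whose level with DMSO was below it (3.09 and -2.37 for Eef1g to Eef1a1 in the first 2 comparisons, -0.54 for Eef1e1 to Eef1g in the first). The labels number the libraries and do not state whether same-numbered ones shared a culture or batch. Their deviations from the group means had r of 0.487 and 0.282 for DMSO and GV, -0.601 and -0.348 for BYBX and DMSO, and -0.33 for BYBX and GV. In a group of 2 libraries these deviations mirror one another, so the values cannot decide whether same-numbered libraries belong together. With the replicate block, 10 members were lower in MII with DMSO, 10 higher with BYBX against DMSO and 8 lower than in GV, and the log2 fold change of Eef1d was -6.45 in the first and 4.46 in the second.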
